A study of Homo sapiens with 24 samples.

Results

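The 10 genes described here encode osteopontin (SPP1) and the cell surface receptors that bind it: CD44, the integrin alpha subunits ITGAV, ITGA4, ITGA5, ITGA8 and ITGA9, and the integrin beta subunits ITGB1, ITGB3 and ITGB5. They were picked by name, with their levels in these libraries and their changes against the control already known, so changes against the control are given as a description with no p-value. All 10 are among the 61544 identifiers of the organoid table, and all 10 passed the filter on low counts there. The neural progenitor table lists 10221 genes, among them 7 of the 10. CD44, ITGB3 and ITGB5 were not analysed here in the progenitors, and ITGA8 had too few counts there to be fitted.

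Poly(A)-selected RNA was sequenced from cells made from H9, an established line of human embryonic stem cells. The stem cells received a lentiviral short hairpin RNA at a multiplicity of infection of 20, went through puromycin selection (1 µg/ml) and were then turned into neural progenitor cells (NPCs) or into cerebral organoids sampled at day 30. The hairpin was scrambled in the control group, NC, and directed against KDM2A, which removes methyl groups from lysine 36 of histone H3, in the groups sh1 and sh4. NC cells thus also carried a virus and had been through drug selection. Each NPC group had 5 libraries and each organoid group 3. The series is titled for KDM2A and its part in neural development. Whether a line was clonal, whether organoids were pooled and whether libraries came from separate cultures was not stated. A p-value here therefore reflects how these libraries scatter, and that scatter may be technical. Every p-value printed for a member compares sh1 with sh4, whose levels were known when the members were picked. Those p-values are thus a description and no independent evidence of a difference.

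Osteopontin is a secreted, acidic phosphoprotein of bone matrix and of inflamed or injured tissue. An RGD motif in it is bound by integrins that contain the alpha subunits ITGAV, ITGA5 or ITGA8, and thrombin cleavage exposes a neighbouring site for ITGA4 and ITGA9 paired with ITGB1. CD44, best known as the hyaluronan receptor, has also been described as an osteopontin receptor. An integrin works as a pair of 1 alpha and 1 beta subunit: ITGB1 pairs with ITGAV, ITGA4, ITGA5, ITGA8 and ITGA9, while ITGB3 and ITGB5 pair with ITGAV. In brain, osteopontin is known from activated microglia, and these receptors also bind matrix proteins such as fibronectin, vitronectin and tenascin.

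SPP1 lies on chromosome 4 (GRCh38, 87975650 to 87983426, plus strand) and no other annotated gene overlaps it. CD44 lies on chromosome 11 (35138870 to 35232402, plus strand), where an antisense gene, CD44-AS1, overlaps it. These were the members with the largest difference from NC in the NPCs and in the organoids. The 250 bases before their RefSeq start sites on GRCh38.p14 are therefore shown, 5′ to 3′ on the plus strand. Those start sites lie inside the gene spans given above, which are from GENCODE, so each window overlaps its span. Capitals mark a RUNX motif in the SPP1 window (TGTGGT on the minus strand) and a pair of GC boxes in the CD44 window (GGGCGG, 1 on each strand).
SPP1, chr4:87975464-87975713: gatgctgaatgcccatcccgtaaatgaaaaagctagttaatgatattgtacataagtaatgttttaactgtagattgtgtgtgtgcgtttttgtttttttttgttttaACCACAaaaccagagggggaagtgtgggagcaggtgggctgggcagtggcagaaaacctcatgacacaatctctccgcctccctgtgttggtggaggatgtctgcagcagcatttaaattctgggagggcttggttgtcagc
CD44, chr11:35138921-35139170: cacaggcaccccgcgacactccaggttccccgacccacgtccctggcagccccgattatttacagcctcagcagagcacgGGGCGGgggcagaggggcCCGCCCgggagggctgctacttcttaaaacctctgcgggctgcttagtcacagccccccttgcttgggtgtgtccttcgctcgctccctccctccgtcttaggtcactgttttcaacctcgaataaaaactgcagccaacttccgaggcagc

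The SPP1 window is 44.8% G and C, and 21.6% of 35116 RefSeq promoter windows of this length had a lower share. The CD44 window is 62.4% G and C, against a median of 58.0% over all windows. The RUNX motif, searched on both strands, occurs in 11% of all windows, and the GC box in 42.6%. Also searched on both strands were the TATA box (TATAAA), the CCAAT box (CCAAT), the AP-1 site (TGANTCA), an octamer-type motif (ATGCAAA) and the E-box (CACGTG), none of which matched in either window. These matches describe letters only. Windows were found for 8 of the 10 members, all but ITGA9 and ITGB3.

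Listed-gene totals were 12.7 to 20.2 M counts in the NPC libraries, and totals were 15.9 to 18.9 M counts in the organoid libraries. KDM2A was at 163 to 202 CPM (counts scaled to a common library size with TMM factors) in NC NPCs, at 89.1 to 98.1 CPM with sh1 and at 91.3 to 102 CPM with sh4, with log2 fold changes of -1.02 (SE 0.0549) and -0.97 (SE 0.0548). In the organoids KDM2A was at 96.8 to 105 CPM with NC, at 103 to 117 CPM in the libraries labelled sh1 and at 95.5 to 105 CPM in those labelled sh4. The organoid labels were therefore not borne out by the target's RNA, and directions given for organoids rest on the labels. As a check of the tissue, the pluripotency factor POU5F1 stood at 356 ± 79.8 CPM (SD, n = 5) in NC NPCs and at 231 ± 67.0 CPM (SD, n = 3) in NC organoids. The progenitor factor SOX1 was at 13 ± 0.86 and 54.6 ± 3.82 CPM there. POU5F1 thus stood above SOX1 in NC of both systems, and whether NC cells stayed undifferentiated was not tested. In organoids labelled sh1 and sh4, POU5F1 was at 0.475 ± 0.509 and 0.680 ± 0.539 CPM, and SOX1 at 8.78 ± 2.37 and 2.76 ± 0.390 CPM.

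SPP1 was the member furthest from NC in the NPCs, and it was higher with both hairpins. The 5 NC libraries held 26.2, 24.4, 29.7, 25.6 and 24.6 CPM. The 5 sh1 libraries held 461, 404.5, 446, 375 and 333 CPM, and the 5 sh4 libraries 588, 441, 340, 541 and 470 CPM. Every hairpin library was more than 10 times above the highest NC library, and the sh1 and sh4 libraries overlapped. The log2 fold change against NC was 3.96 (SE 0.131), or 15.5-fold, with sh1 and 4.19 (SE 0.132), or 18.3-fold, with sh4. Between the hairpins the log2 difference, sh1 over sh4, was -0.24 with a 95% interval of -0.47 to -0.01, which did not pass edgeR's quasi-likelihood test (Benjamini-Hochberg adjusted p = 0.125). That outcome rests on 1 library: without the third sh4 library the difference was -0.34 (edgeR adjusted p = 0.0093), and without the first it was -0.15 (adjusted p = 0.342).

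**Figure D1:**
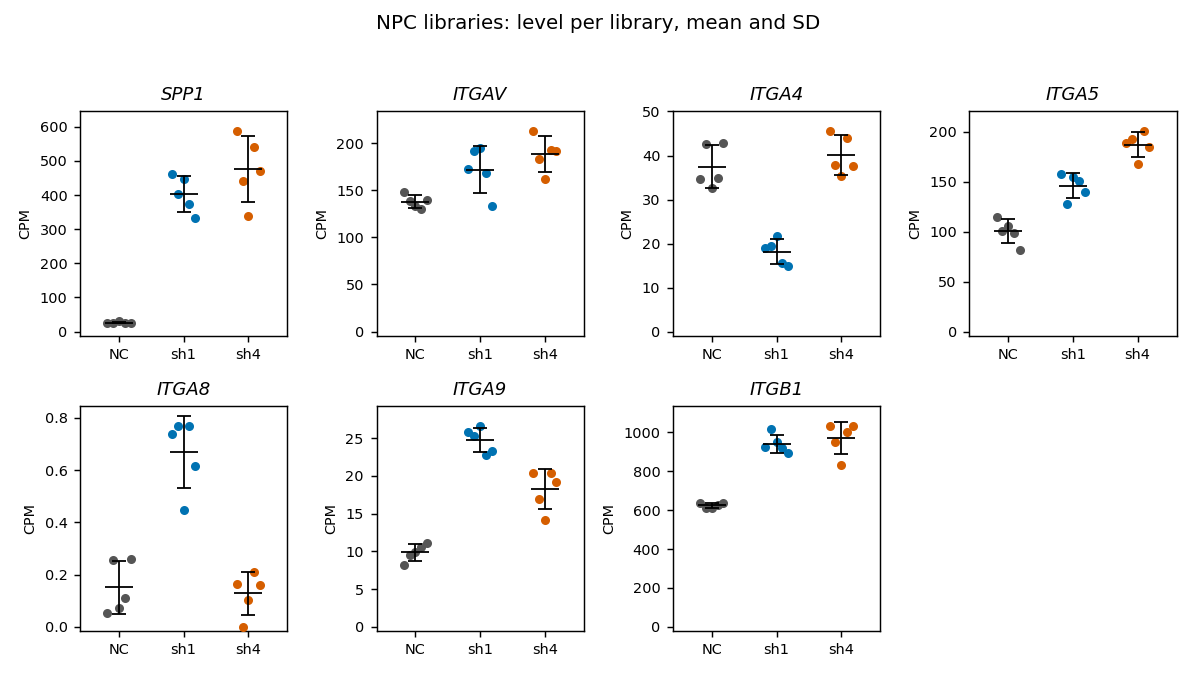
Level in CPM (y axis, linear) of the 7 members listed for the NPCs in each library of NC, sh1 and sh4 (5 points a group), with the group mean and SD as bars. SPP1 lies at 24.4 to 29.7 CPM in NC and at 333 to 588 CPM with either hairpin, while ITGA4 is low with sh1 alone, at 14.8 to 21.8 CPM.

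In the organoids the 2 labels lay on opposite sides of NC for SPP1. NC libraries held 48.4, 48.4 and 44.7 CPM. Libraries labelled sh1 were lower, at 32.0, 19.5 and 31.8 CPM, and libraries labelled sh4 held 83.8, 83.9 and 48.6 CPM. The third sh4 library was thus only just above NC, while no sh1 library reached an NC library. Against NC the log2 fold change was -0.76 (SE 0.231) for sh1 and 0.61 (SE 0.227) for sh4. The libraries labelled sh1 were below those labelled sh4 by a log2 difference of -1.38 (SE 0.232, edgeR adjusted p = 0.00119). The levels of both labels were known when the members were picked, so that p-value is a description. No difference between the NPCs and the organoids was tested, because the rule for the members used both.

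CD44, which binds hyaluronan as well as osteopontin, was the member furthest above NC in the organoids labelled sh4. NC libraries held 5.19, 9.39 and 9.73 CPM, libraries labelled sh1 held 20.2, 12.4 and 27.2 CPM, and libraries labelled sh4 held 166, 132 and 114 CPM. The 3 groups did not overlap. Against NC the log2 fold change was 1.30 (SE 0.309) for sh1 and 4.08 (SE 0.318), or 16.9-fold, for sh4. Without the third sh1 library the sh1 value was 0.99, under the fold threshold of 1. The labels differed by -2.79 (SE 0.293, edgeR adjusted p = 1.42e-04).

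**Figure D2:**
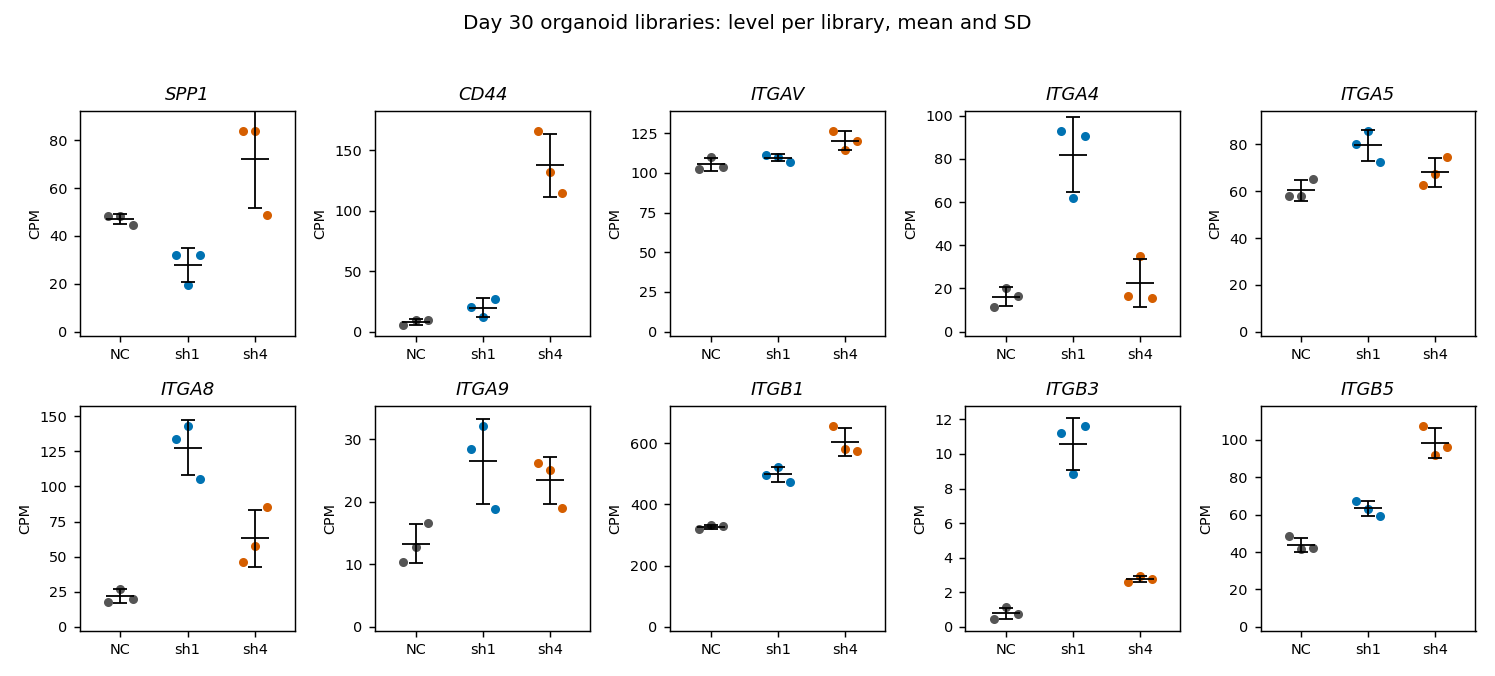
Level in CPM (y axis, linear) of the 10 members in each day 30 organoid library labelled NC, sh1 and sh4 (3 points a group), with the group mean and SD as bars. CD44 and ITGB5 are highest in the libraries labelled sh4, ITGA4, ITGA8 and ITGB3 in those labelled sh1, and SPP1 lies on opposite sides of NC.

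Of the alpha subunits that read the thrombin-exposed site, ITGA4 (chromosome 2, 181457202 to 181536187) also lay on opposite sides of NC with sh1 in the 2 systems. In the NPCs the NC libraries held 34.6, 42.6, 32.5, 34.8 and 42.7 CPM. With sh1 they held 19.1, 19.5, 21.8, 15.7 and 14.8 CPM, and with sh4 45.6, 37.8, 35.4, 44.1 and 37.5 CPM. All sh1 libraries lay below both other groups, and the sh4 and NC libraries overlapped. Against NC the log2 fold change was -1.05 (SE 0.109) with sh1, which crosses the threshold of 1 in size only narrowly: it was -0.998 without the second NC library, -0.996 without the fifth NC library, -0.996 without the fourth sh1 library and -0.979 without the fifth sh1 library. With sh4 it was 0.09 (SE 0.104). The hairpins differed by -1.14 (SE 0.109, edgeR adjusted p = 9.09e-08).

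In the organoids ITGA4 was high in the libraries labelled sh1. NC libraries held 11.4, 20.3 and 16.7 CPM, libraries labelled sh1 93.1, 61.9 and 90.7 CPM, and libraries labelled sh4 16.7, 35.1 and 15.7 CPM. The second sh4 library stood above NC, and the other 2 lay within the NC range. The log2 fold change against NC was 2.34 (SE 0.328) for sh1 and 0.48 (SE 0.327) for sh4. The labels differed by 1.86 (SE 0.321, edgeR adjusted p = 0.00133). ITGA4 counts were not whole in 13 of 15 NPC and 9 of 9 organoid libraries, and how the authors' counting gave fractions is not stated.

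ITGA9 (chromosome 3, 37452115 to 37823514), which also binds tenascin, was higher with both hairpins in both systems. In the NPCs it lay at 8.19 to 11.1 CPM with NC (median 9.97), 22.8 to 26.6 CPM with sh1 (median 25.3) and 14.2 to 20.4 CPM with sh4 (median 19.2), with no overlap between the groups. Log2 fold changes were 1.33 (SE 0.102) and 0.89 (SE 0.103), and the difference between the hairpins was 0.44 (SE 0.0963, edgeR adjusted p = 0.00154). In the organoids NC libraries held 10.4, 12.9 and 16.6 CPM, libraries labelled sh1 28.5, 32.1 and 18.9 CPM, and libraries labelled sh4 26.2, 25.1 and 19.1 CPM. The log2 fold change was 1.00 (SE 0.227, under 1 before rounding) for sh1 and 0.82 (SE 0.228) for sh4. Without the third NC library these were 1.19 and 1.00, both past the fold threshold, and without the third sh1 library the sh1 value was 1.18. The labels overlapped, with a difference of 0.18 (95% interval -0.32 to 0.68, edgeR adjusted p = 0.53).

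Among the RGD-binding alpha subunits, ITGA8 (chromosome 10, 15513949 to 15720125), known from kidney and smooth muscle, was furthest from NC in the organoids. It was near the floor in the NPCs, with 1 to 5 counts a library in NC, 8 to 15 with sh1 and 0 to 4 with sh4. In the organoids NC libraries held 18, 27.3 and 19.8 CPM, libraries labelled sh1 134, 143 and 105.5 CPM, and libraries labelled sh4 46.2, 57.5 and 85.2 CPM. All 3 groups stood apart, with sh4 in between. Log2 fold changes against NC were 2.56 (SE 0.24) and 1.54 (SE 0.236). The difference between the labels was 1.02 (SE 0.225, edgeR adjusted p = 0.00471), and its size fell under 1 with RLE scaling (0.98), in DESeq2 (0.99) and without the first or second sh1 library (0.98 and 0.93) or the first or second sh4 library (0.84 and 0.96).

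ITGA5, the fibronectin receptor subunit, was higher with both hairpins in the NPCs and with sh1 in the organoids, where the sh4 libraries overlapped with NC. NPC libraries held 82 to 114 CPM with NC (median 100.4), 128 to 158 CPM with sh1 (median 150.3) and 168 to 201 CPM with sh4 (median 189). The 3 NPC groups did not overlap, and log2 fold changes were 0.54 (SE 0.0761) and 0.90 (SE 0.076), with a difference of -0.36 between the hairpins (SE 0.075, edgeR adjusted p = 0.00111). Organoid libraries held 57.8, 58.0 and 65.4 CPM with NC, 80.3, 85.9 and 72.6 CPM in those labelled sh1, and 62.5, 67.3 and 74.6 CPM in those labelled sh4. The log2 fold change was 0.40 (SE 0.0912) for sh1, and for sh4 it was 0.17 (SE 0.0915) but -0.10 when scaled by library size alone. The difference between the labels was 0.22 (95% interval 0.02 to 0.43, edgeR adjusted p = 0.0649), 0.45 by library size alone (adjusted p = 0.00837) and 0.30 without the third sh4 library (adjusted p = 0.0339).

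ITGAV, the alpha subunit shared by the ITGB3 and ITGB5 receptors, lay close to NC in the organoids. NC organoid libraries held 103, 110 and 103 CPM, those labelled sh1 111, 110 and 107 CPM, and those labelled sh4 126.5, 114 and 120.1 CPM. Against NC the log2 fold change was 0.05 (SE 0.0597) for sh1. For sh4 it was 0.19 (SE 0.0597), and -0.09 when scaled by library size alone. The difference between the labels was -0.14 (95% interval -0.27 to -0.003, edgeR adjusted p = 0.0828), -0.17 with RLE scaling (adjusted p = 0.0416) and 0.10 by library size alone. NPC libraries held 130 to 148 CPM with NC (median 139), 133 to 195 CPM with sh1 (median 172) and 161.5 to 213 CPM with sh4 (median 192). In the NPCs the log2 fold changes were 0.32 (SE 0.0853) and 0.45 (SE 0.0851), and the hairpins differed by -0.13 (95% interval -0.31 to 0.04, edgeR adjusted p = 0.278).

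Of the beta subunits, ITGB1 was higher with both hairpins in both systems. NPC libraries held 609 to 639 CPM with NC (median 625), 893 to 1017 CPM with sh1 (median 927) and 833 to 1033 CPM with sh4 (median 999.7). Log2 fold changes were 0.59 (SE 0.0542) and 0.64 (SE 0.0542), and the hairpins differed by -0.04 (95% interval -0.16 to 0.07, edgeR adjusted p = 0.603). Organoid libraries held 321, 333 and 328 CPM with NC, 496, 522.5 and 475 CPM in those labelled sh1, and 656, 581 and 574 CPM in those labelled sh4. These groups did not overlap, with log2 fold changes of 0.61 (SE 0.0705) and 0.88 (SE 0.0707). Between the labels it was -0.28 (SE 0.0702, edgeR adjusted p = 0.00897), and -0.04 by library size alone (adjusted p = 0.59). ITGB1 counts were not whole in 9 of 9 organoid libraries.

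ITGB3, the partner of ITGAV in the vitronectin receptor, was scarce with NC and highest in the organoids labelled sh1. NC libraries held 0.442, 1.12 and 0.762 CPM, libraries labelled sh1 11.2, 8.85 and 11.6 CPM, and libraries labelled sh4 2.598, 2.94 and 2.76 CPM. The NC values rest on 7.56, 21 and 13 counts. All groups stood apart, and the log2 fold change was 3.75 (SE 0.29), or 13.5-fold, for sh1 and 1.82 (SE 0.298) for sh4. Between the labels the difference was 1.93 (SE 0.255, edgeR adjusted p = 3.57e-04). Other genes overlap ITGB3, among them the antisense gene THCAT158 and AC068234.1, a protein-coding gene on the same strand. Reads from stretches shared with antisense genes cannot be told apart without strand. For stretches shared with AC068234.1, strand would not separate them either.

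ITGB5, the other partner of ITGAV, had the reverse order. NC libraries held 48.3, 41.5 and 42.1 CPM, libraries labelled sh1 67.5, 63.2 and 59.4 CPM, and libraries labelled sh4 107, 92.0 and 95.9 CPM. The groups did not overlap. The log2 fold change was 0.53 (SE 0.0882) for sh1 and 1.16 (SE 0.0885) for sh4, and the latter was 0.88 when scaled by library size alone. Libraries labelled sh1 were lower than those labelled sh4 by a log2 difference of -0.64 (SE 0.0872, edgeR adjusted p = 4.29e-04), under the fold threshold.

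**Figure D3:**
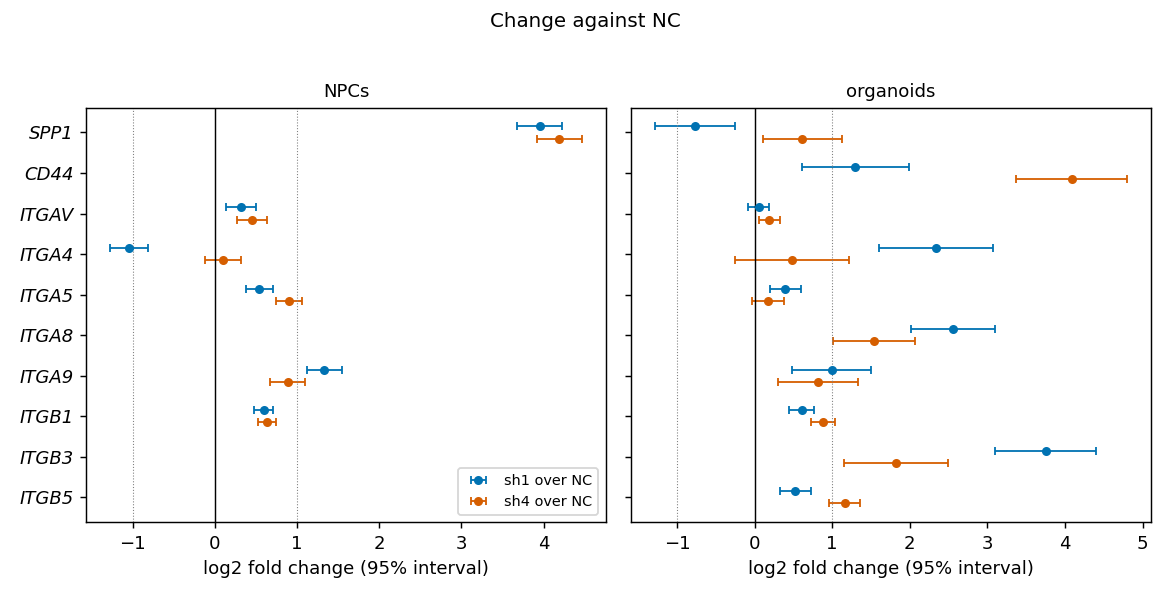
Log2 fold change against NC (x axis) of each member (y axis) with sh1 (blue) and sh4 (orange), in the NPCs and in the organoids. Bars are 95% intervals and dotted lines mark -1 and 1. In the NPCs SPP1 lies at 3.96 and 4.19, and in the organoids it lies at -0.76 and 0.61 while CD44 reaches 4.08.

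Members were counted as called at an adjusted p under 0.05 and a log2 fold change of at least 1 in size, beside the share of all tested genes called the same way. The NPC table holds a set in which 99.3% of tested genes differed between sh1 and NC at an adjusted p under 0.05, so NPC shares are shares of that set, and the members it lists are subject to the same selection. In the NPCs 3 of 6 fitted members passed with sh1, beside 18.4% of the tested genes: SPP1 and ITGA9 were higher (6.31% of the tested genes) and ITGA4 lower (12.1%). That count was 4 with DESeq2 and with no filter, where ITGA8 entered as higher with sh1 (log2 fold changes of 2.10 and 2.06), and 2 without the fourth or the fifth sh1 library. With sh4, SPP1 alone passed, beside 18.1% of the tested genes and 6.55% higher. In the organoids 4 of 10 passed with sh1, CD44, ITGA4, ITGA8 and ITGB3, all higher, beside 20% of all genes, 12.1% higher and 7.92% lower. With sh4 4 passed, CD44, ITGA8, ITGB3 and ITGB5, all higher, beside 35.5% of all genes, 20% higher and 15.5% lower. The rule used these contrasts, so nothing is read from the counts. Both hairpins share the NC libraries of their system.

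Members whose libraries did not overlap with NC were counted likewise. In the NPCs 4 of 6 lay wholly above NC with sh1, where 37% of the tested genes of that selected table did, and 1 wholly below, where 39.6% did. With sh4 5 of 6 lay wholly above NC, where 36.6% of the same genes did. In the organoids 8 of 10 lay wholly above NC with sh1, where 32.3% of all genes did, and SPP1 wholly below, where 29.8% did. With sh4 8 of 10 lay wholly above NC, where 36.6% of all genes did.

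Between the hairpins, 1 of 6 fitted members passed in the NPCs, ITGA4, lower with sh1, beside 4.6% of all tested genes, 2.18% higher and 2.42% lower. In the organoids 5 of 10 passed, beside 19% of all genes. SPP1 and CD44 were lower (11.2% of all genes), and ITGA4, ITGA8 and ITGB3 higher (7.83%), in the libraries labelled sh1. Without overlap, ITGA9 was higher with sh1 in the NPCs (9.3% of the tested genes) and ITGA4 and ITGA5 lower (11.3%). In the organoids 3 members were higher without overlap (30% of all genes) and 5 lower (29.1%). The median log2 difference, sh1 over sh4, over all genes was 0.004 in the NPCs and 0.03 in the organoids. These tests use libraries whose levels were known when the members were picked, and so are not independent of that choice. The order of the labels differed between subunits that share a partner: ITGB3 was higher in organoids labelled sh1, ITGB5 in those labelled sh4, and their partner ITGAV had an adjusted p under 0.05 with RLE scaling only, among the settings tried.

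**Figure D4:**
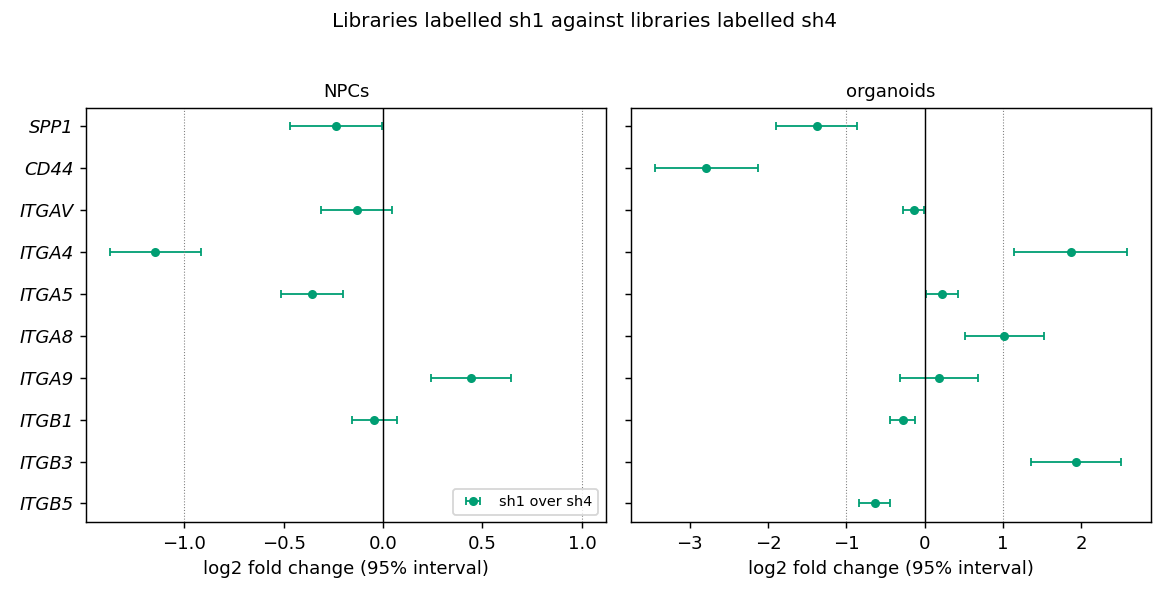
Log2 difference between sh1 and sh4 (x axis, sh1 over sh4) of each member (y axis) in the NPCs and in the organoids, on separate scales. Bars are 95% intervals and dotted lines mark -1 and 1. ITGA4 lies at -1.14 in the NPCs and at 1.86 in the organoids, and CD44 at -2.79 in the organoids.

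Scaling bears on the small differences. TMM factors were 0.818 to 0.929 in organoids labelled sh4 and 1.03 to 1.08 in the other organoid libraries. Scaling by library size alone moved the median log2 fold change of all genes from -0.01 to -0.28 for organoid sh4 against NC, and from 0.03 to 0.26 for organoid sh1 over sh4. In the NPCs it moved the median from 0.11 to -0.03 with sh1 and from 0.03 to -0.11 with sh4. The share of called genes that were higher went from 56.4% to 43.3% for organoid sh4, from 41.2% to 57.3% for organoid sh1 over sh4, from 34.3% to 23.7% for NPC sh1 and from 36.2% to 26.7% for NPC sh4. SPP1 in organoids labelled sh4 then had a log2 fold change of 0.33 in place of 0.61.

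Levels can be set against each other per kilobase of exon (CPM per kb). The length used merges all annotated exons of a gene, not those of the transcript expressed, so orders between genes depend on it. In NC NPCs the order was ITGB1 at 104 ± 2.31 CPM per kb, ITGAV at 16.8 ± 0.882, ITGA5 at 13.2 ± 1.58, SPP1 at 11.3 ± 0.924, ITGA4 at 4.74 ± 0.614, ITGA9 at 1.19 ± 0.133 and ITGA8 at 0.02 (SD, n = 5). ITGA5 and SPP1 overlapped. With sh1 SPP1 stood at 174 ± 22.5 and ITGB1 at 157 ± 7.84 CPM per kb, and with sh4 at 205 ± 41.2 and 161 ± 13.8. SPP1 and ITGB1, the ligand and the most abundant of the receptor subunits listed for the NPCs, overlapped in both hairpin groups.

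In NC organoids ITGB1 led at 54.4 ± 1.01 CPM per kb (SD, n = 3), followed by SPP1 at 20.3 ± 0.919, ITGAV at 12.8 ± 0.484, ITGA5 at 7.97 ± 0.575 and ITGB5 at 6.82 ± 0.586. ITGA8, ITGA4 and ITGA9, at 2.88, 2.04 and 1.61 CPM per kb, overlapped with their neighbours in that order, and CD44 at 0.81 and ITGB3 at 0.176 were lowest. In libraries labelled sh1, ITGA8 came second at 16.9 ± 2.601, and ITGAV, SPP1, ITGA5, ITGA4 and ITGB5, from 13.3 down to 9.83, each overlapped with the next. In libraries labelled sh4, SPP1 came second at 31.1 ± 8.78, and ITGB5, ITGAV and CD44, at 15.3, 14.7 and 13.7, overlapped.

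The mix of alpha subunits was read as the share of each in their summed level per kb. In the organoids ITGAV made up 47.0% of the sum with NC, 24.6% with sh1 and 39.1% with sh4. ITGA8 made up 10.5%, 31.1% and 22.0%, and ITGA4 7.4%, 19.2% and 7.56%. In the NPCs ITGAV and ITGA5 made up most of the sum in every group, with ITGAV at 46.7%, 45.8% and 41.8% and ITGA5 at 36.7%, 42.4% and 45.0%, and ITGA4 at 13.2%, 5.03% and 9.23%. No test was run on these shares.

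**Figure D5:**
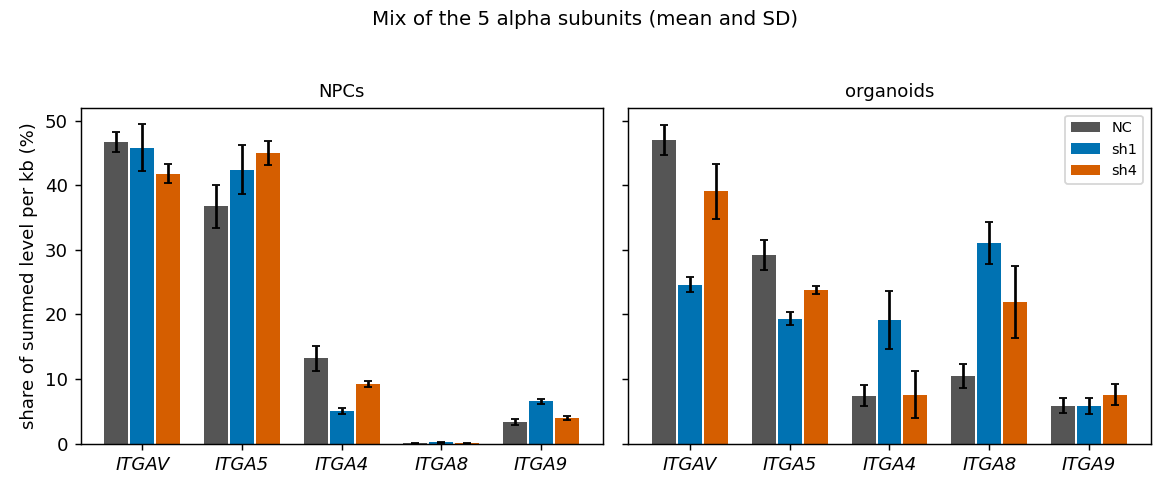
Share of each alpha subunit in the summed level per kb of the 5 alpha subunits (y axis, percent) by group, as mean bars with SD (NPCs n = 5, organoids n = 3). In the organoids ITGA8 has 10.5% of the sum in NC libraries, 31.1% in those labelled sh1 and 22.0% in those labelled sh4.

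Other genes of the pathway were read from lists, for which "rose" and "fell" mean called with both hairpins in the same direction against NC. Over all tested genes, 4.62% rose and 8.48% fell in the selected NPC table, and 10.2% rose and 6.18% fell in the organoids. Of the SIBLING family, the bone and tooth matrix proteins to which osteopontin belongs, no other member passed the filter in either system. Of the other integrin subunits, 2 of 10 rose and 2 fell in the NPCs: the collagen receptor subunit ITGA11 (log2 fold changes of 1.52 for sh1 and 3.00 for sh4) and ITGAM rose, and ITGB4 (-2.58 and -2.05) and ITGA10 fell. ITGAM and ITGA10 were near the floor there. With NC, sh1 and sh4 the means were 0.13, 0.73 and 1.38 CPM for ITGAM and 1.04, 0.51 and 0.41 CPM for ITGA10. In the organoids 4 of 17 rose, among them ITGA11 (3.18 and 4.21), the collagen receptor subunit ITGA1 (4.14 and 3.92) and ITGB7, and ITGB8, another partner of ITGAV, fell (-1.31 and -2.28). ITGB7 was near the floor, at means of 0.07, 0.82 and 1.03 CPM with NC, sh1 and sh4. The median log2 fold change of this list was -0.52 with sh1 and -0.34 with sh4 in the NPCs, against 0.11 and 0.03 for all genes, and 0.19 and 1.90 in the organoids, against 0.02 and -0.01.

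Integrin activation and focal adhesion genes, which couple the receptors to actin, were mostly not called. In the NPCs 1 of 18 rose, the blood cell kindlin FERMT3, and none fell. FERMT3 was near the floor, at means of 0.35, 1.28 and 1.27 CPM with NC, sh1 and sh4. In the organoids 5 of 22 rose, among them talin TLN1 (1.26 and 1.34), PARVA (1.38 and 1.46), TNS1 (2.06 and 1.75) and TNS3 (1.95 and 1.27), and none fell. Of the other ligands of these integrins, 10 of 22 rose in the organoids and 1 fell. Among those that rose were the matrix proteins EMILIN1 (3.85 and 3.85), TGFBI (3.61 and 3.89), POSTN (3.07 and 3.56) and FBN1 (2.39 and 2.31), and the list's median was 1.35 and 1.74. In the NPCs 2 of 15 rose, TGFBI (2.12 and 4.96) and EDIL3 (1.62 and 2.77), and VWF fell (-2.22 and -1.99).

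Hyaluronan enzymes and CD44 partners split in the organoids, where 6 of 20 rose, among them MMP14 (1.37 and 1.67), which sheds CD44, CEMIP (1.98 and 2.77) and LYVE1 (3.59 and 5.37), and 2 fell, among them the hyaluronan synthase HAS3 (-1.94 and -3.57). In the NPCs 1 of 12 rose, HAS2 (1.21 and 3.28). Of the proteases and enzymes that cleave or modify osteopontin, MMP2 rose in both systems (1.53 and 1.70 in the NPCs, 1.86 and 1.49 in the organoids), as the 1 of 7 that rose in the NPCs and among the 4 of 12 that rose in the organoids. Prothrombin (F2, 3.98 and 6.15) and the crosslinking enzyme TGM2 (1.53 and 2.46) also rose in the organoids, and ALPL fell (-1.38 and -2.004).

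Of the transcription factors described at SPP1 regulatory DNA, RUNX2, the master factor of bone formation, rose in both systems. It was at 4.62 ± 0.660 CPM in NC NPCs, 18.2 ± 2.43 with sh1 and 36.1 ± 4.33 with sh4 (SD, n = 5). In the organoids it was at 1.34 ± 0.330 CPM with NC, 16.9 ± 2.58 with sh1 and 17.7 ± 4.08 with sh4 (SD, n = 3), while SPP1 lay below NC with sh1. POU5F1 fell in both systems, SOX2 fell in the organoids (-1.09 and -3.17), and MITF rose there (1.62 and 2.29). In all, 1 of 8 such factors rose and 1 fell in the NPCs, and 3 of 13 rose and 2 fell in the organoids.

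Markers of other cell types moved beside the members in the organoids, and in bulk libraries fewer cells of a type and less RNA per cell cannot be told apart. Of 14 microglia and macrophage markers, 10 rose, and their summed level was 2.99 to 5.19 CPM with NC, 13.8 to 44.3 CPM with sh1 and 114 to 243 CPM with sh4. C1QA, C1QB and C1QC were at 0 in every NC library. CD68 was at 1.34 ± 0.585, 8.43 ± 4.66 and 58.5 ± 16.1 CPM (SD, n = 3). In the selected NPC set only 2 of these markers are listed, TREM2 and ITGAM, with sums of at most 2.16 CPM in any library. The other markers are not listed there, so the level of this cell type cannot be read in the NPCs.

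Of 11 tested mesenchyme and osteoblast markers, 10 rose in the organoids, with COL1A1 at 2.44 and 3.26 and DCN at 3.11 and 4.61. RUNX2 was among those that rose, and ALPL fell (-1.38 and -2.004). SP7 and BGLAP, also on this list, did not pass the filter, with group means of at most 1.29 CPM. Whether osteoblast markers rose apart from other mesenchyme markers was not tested. The summed level of the list was 2990 to 4390 CPM with NC, 20800 to 23200 CPM with sh1 and 39700 to 48800 CPM with sh4. In the NPCs 2 of 8 rose, RUNX2 and LUM, and 7 of 8 were called higher with sh4. The sum was nevertheless 6410 to 7130 CPM with NC and 4860 to 6610 CPM with either hairpin. Most of that sum was COL3A1, at means of 6157, 4230 and 4508 CPM with NC, sh1 and sh4. Epithelial markers followed the order of SPP1 in the organoids: they summed to 841 to 972 CPM with NC, 554 to 757 CPM with sh1 and 2140 to 2860 CPM with sh4, and 9 of 11 were called higher with sh4 and none with sh1. In the NPCs none of 8 rose and 3 fell, CLDN4, CLDN3 and ELF3. The list split there with sh1, with 2 called higher and 4 lower. Its sum was 197 to 219 CPM with NC, 246 to 279 CPM with sh1 and 191 to 251 CPM with sh4.

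Endoderm markers rose in 6 of 9 cases in the organoids and summed to 95.2 to 491 CPM with NC, 3340 to 9730 CPM with sh1 and 18900 to 66100 CPM with sh4, and AFP made up much of this (4569 ± 2304 and 28430 ± 19070 CPM, SD, n = 3). The transcription factors on this list split. GATA6 and FOXA1 rose, and FOXA2 was called higher with sh4 alone (1.26). GATA4 was called lower with sh1 (-1.30), and SOX17 was not called (-0.47 and -1.08). Choroid plexus markers rose in 6 of 9 cases, TTR and CLIC6 among them, and endothelial markers in 3 of 7. TTR is counted in both the endoderm and the choroid plexus list, and CLDN5 in both the choroid plexus and the endothelial list. The choroid plexus marker OTX2 was not called (0.02 and -0.59), and the endothelial marker VWF was called lower with sh4 (-1.18). Neuronal markers fell in 3 of 12 cases, among them MAP2 (-1.85 and -3.94), and 11 of 12 were called lower with sh4. They summed to 3150 to 3410 CPM with NC, 1240 to 1700 CPM with sh1 and 225 to 899 CPM with sh4. Neural progenitor markers fell in 6 of 11 cases, among them PAX6 (-3.56 and -4.41), and summed to 3330 to 3810, 2860 to 2980 and 1390 to 1830 CPM. Astroglial and outer radial glial markers split, with 2 of 11 rising, S100B and AGT, and 2 falling, PTPRZ1 and FABP7. The part of these cell types in the members' differences was not tested.

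In the NPCs progenitor markers rose in 2 of 7 cases, SOX1 and PROM1, astroglial and radial glial markers rose in 3 of 10 (FABP7, SLC1A3 and PTPRZ1) and fell in 3, and MAPT was the 1 of 8 neuronal markers that fell. Endothelial markers rose in 1 of 7 cases, KDR (2.94 and 3.25), and fell in 2, CDH5 and VWF. CLIC6 was the 1 of 6 choroid plexus markers that rose, and APOB, the only endoderm marker that passed the filter, fell.

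Over the 15 NPC libraries the genes whose log2 CPM most resembled that of SPP1, among 7950 genes, were ZMYND8 (Pearson r = 0.996), DUSP6, GCNT4, SPRY2 and CTSC (r = 0.995). The group difference dominates this measure: DUSP6, a phosphatase that switches off ERK, was at 23.8, 101 and 108 CPM with NC, sh1 and sh4. Of the members ITGB1 was nearest, at r = 0.979, and ITGA4 was at r = -0.348. Within groups, from deviations around the group means, IGF1R (r = 0.962), NEO1, SPRY4, ADAM19 and TAGLN2 were nearest, and of the members ITGA9 (r = 0.712) and ITGAV (r = 0.7101). Over the 9 organoid libraries, among 12190 genes, the nearest in level were TNFRSF12A (r = 0.970), PRSS8, TSTD1, CRYBG3 and F11R (r = 0.959). F11R, a tight junction protein, was at 92.8, 32.1 and 148 CPM, and the epithelial protease PRSS8 at 45.3, 15.7 and 78.7 CPM with NC, sh1 and sh4. Within organoid groups the nearest were SEL1L3 (r = 0.985), PIM1, SRSF8, SPNS2 and CRELD1. These are descriptions across libraries that share groups and scaling, and they carry no test.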

How the data were processed

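The authors deposited 1 table of unscaled gene counts for the NPCs and 1 for the organoids. STAR, featureCounts and GRCh38.p13 are named, per the submitters' processing notes, with no version or strand setting. The deposited values were handled like estimated counts, because 82.4% of NPC values and 91% of organoid values were whole, and they were rounded before testing. The NPC table is a selected set: 99.3% of its tested genes differed between sh1 and NC at an adjusted p under 0.05. Its totals are therefore totals of listed genes, not depth, and its CPM (counts scaled to a common library size) are relative to those genes. In the organoid table, 42085 of 61544 identifiers had a symbol.

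Genes passing filterByExpr of edgeR 4.0.16 (minimum count 10) were scaled by TMM (trimmed mean of M values), which left 9860 NPC and 19704 organoid genes. The 3 groups of a system were fitted together in R 4.3.3 and tested with edgeR's quasi-likelihood method, with Benjamini-Hochberg adjustment over all tested genes. A gene was called at an adjusted p under 0.05 and a log2 fold change of at least 1 in size, which are the submitters' own thresholds. The code was tested on simulated counts. Replicate pairs differed by more than counting noise, with a chi-square of 2.65 to 55.4 for each degree of freedom.

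The members and lists were chosen with earlier results of these data known. Named are KDM2A, the members, up to 4 genes per list and system that were called the same way with both hairpins (smallest of the larger adjusted p), and the 5 genes per system and measure most correlated with SPP1 among genes with a mean log2 CPM of at least 3. A few further genes are named where a level or a sum rests on them. Gene positions and exon lengths came from GENCODE on GRCh38, and promoter windows from RefSeq on GRCh38.p14. Alternatives were RLE scaling, library size alone, DESeq2 1.42.0, no filter, only the 2 groups compared, a replicate block, and leaving out each library.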

Additional observations from a re-analysis of the deposited data

Results flagged for a closer look

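For sh1 against NC, 2 members moved in opposite directions in the 2 systems, with every sh1 library on 1 side of every NC library in each. SPP1 had a log2 fold change of 3.96 in the NPCs and -0.76 in the organoids. ITGA4 had a log2 fold change of -1.05 in the NPCs and 2.34 in the organoids. The difference between the systems was not tested, the tables were scaled separately, and KDM2A was not lower in the organoids labelled sh1. In none of the 21 NPC groups of 5 libraries did a member's highest or lowest library stand apart from the others by Dixon's criterion.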

How the results depend on the processing

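The members' fold changes were compared under the alternatives and with each library left out. Against NC, 95 of 96 NPC values for sh1 and 95 of 96 for sh4 moved by less than 1 SD. The SD was that of log2 CPM in the more variable of the groups compared. For sh1 over sh4, 96 of 96 NPC values kept both their sign and their call. In the organoids the same counts were 120 of 120, 116 of 120 and 113 of 120. Of the remaining organoid values for sh1 over sh4, 6 lost their call and 1 reversed. Library size alone gave ITGB1 0.45 and 0.49 in the NPCs, and ITGAV -0.09, ITGA5 -0.10, ITGB1 0.60 and ITGB5 0.88 for organoid sh4, and it reversed ITGAV for organoid sh1 over sh4 (0.097, edgeR adjusted p = 0.215). The count of members called in the NPCs for sh1 over sh4 was 2 with DESeq2 and 2 with no filter, since ITGA8 then entered at log2 differences of 2.39 and 2.33, and it ranged from 1 to 2 with 1 library left out. For NPC sh1 against NC the count ranged from 2 to 4 with 1 library left out. For sh1 over sh4 it was 2 without the third sh1 library or without any 1 of the 5 sh4 libraries. The replicate numbers were not used as pairs in the main fit. Correlations of same-numbered deviations ran from -0.0995 to 0.393 in the NPCs and from -0.156 to 0.0352 in the organoids. Of the libraries, 6 of 15 and 1 of 9 correlated best with their own number. In the NPCs the correlations were 0.181 to 0.327 for number 1 and 0.229 to 0.393 for number 5, while numbers 2 and 4 included negative values. Whether equal numbers share a batch was not tested. With the replicate block, genes called numbered 1818, 1789 and 460 in the NPCs and 3771, 6899 and 3600 in the organoids, SPP1 was at 3.95, 4.18 and -0.23 in the NPCs and at -0.77, 0.60 and -1.36 in the organoids, and no member's call was changed. Among the members, few counts limit ITGA8 in the NPCs and ITGB3 in NC organoids.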

Other observations

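Over the 10118 genes listed in both tables, scaled to their own total, SPP1 was at 28.0 ± 2.53 CPM in NC NPCs (SD, n = 5) and at 78.9 ± 3.67 CPM in NC organoids (SD, n = 3). On that scale ITGA8 was at 0.161 ± 0.107 CPM in NC NPCs and at 36.3 ± 8.25 CPM in NC organoids. ITGB1 was at 670.2 ± 11.7 and 547 ± 10.2 CPM, and ITGAV at 148 ± 7.41 and 176 ± 6.79 CPM. The 2 systems were sequenced and counted in separate tables, so these levels are set side by side with no test.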
